A study of Saccharomyces cerevisiae with 10 samples.

Results

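The 10 genes of calcineurin signalling and calcium transport described here were followed through a cycle of KCl stress and recovery in budding yeast. They were selected by name: every *S. cerevisiae* probe set whose platform gene symbol was CNA1, CMP2, CNB1, CMD1, CRZ1, RCN1, PMC1, PMR1, VCX1 or CCH1. Each symbol had a single probe set, so the 10 genes were represented by 10 of the 5498 *S. cerevisiae* probe sets named here, which cover 5449 genes. Expression was measured on Affymetrix Yeast Genome 2.0 arrays. Values are log2 expression values from robust multi-array averaging (RMA), so a difference of 1 is a 2-fold change. All 10 genes lay above the 95th percentile of the probe sets of another species on all 10 arrays.

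The strain is named BQS1350 in the labels. The methods describe it as a *MATα* derivative of By4742 with the *his3-1*, *leu2-0*, *lys2-0* and *ura3-0* alleles, in which Gcn5 carries a MYC13 tag linked to KanMX6. These alleles and the tag were shared by all groups, so each value is that of a tagged laboratory strain. Sample A was taken in log phase in rich glucose medium (YPD) at 30 °C (normal growth). Sample B was collected 1 h after KCl had been raised to 1 M (during stress adaptation), and Sample C after the cells had grown in the same KCl medium (after stress adaptation). Sample D was collected 1 h after return to YPD without KCl (during stress recovery), and Sample E after another 2 to 3 generations (after recovery). Each sample had 2 arrays, and the 2 replicate cultures were grown as separate batches.

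Calcineurin is a protein phosphatase that is switched on by calcium and calmodulin. In yeast it acts largely by dephosphorylating the transcription factor Crz1, which then enters the nucleus and activates genes for ion pumps, cell wall enzymes and feedback regulators. Cytosolic calcium is kept low by pumps and an exchanger that move it into the vacuole and the Golgi, and it enters from outside through a plasma membrane channel. The enzyme and Crz1 are thus regulated mainly at the protein level, which transcript values do not show.

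Several facts of the whole data set bear on every value below. Array medians over all *S. cerevisiae* genes lay between 9.59 and 10.19, with the highest on replicate 2 of Sample B. The replicates of Sample B resembled each other less than those of the other groups: their root mean square difference over genes was 1.04, and it was 0.32 to 0.48 elsewhere. The 18S ribosomal RNA signal (3′ probe set) stood at 10.09 and 10.31 in Sample B and at 11.21 to 12.66 elsewhere. The 3′ minus 5′ difference of the ACT1 probe sets was 0.18 in replicate 1 and 0.56 in replicate 2 of Sample B, and 0.25 to 0.37 elsewhere, so it differed between the same 2 arrays on which PMC1, CMP2 and CNB1 were uneven. The part of either measure in the results was not tested. Of the mating type markers, the α-cell genes STE3 and MF(ALPHA)1 were high on all arrays (11.76 or more), whereas the a-cell genes MFA1 and STE2 read 7.45 or less but above the other-species level on all arrays. LYS2 and URA3 were below the level of the other species on all 10 arrays, and LEU2 read at most 5.99, above that level on all 10.

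PMC1 (YGL006W), the calcium pump of the vacuole, showed the widest range of the 10 genes. In Sample A it read 9.34 in replicate 1 and 9.55 in replicate 2. In Sample B it read 10.29 and 11.93, and in Sample C 10.15 and 10.83. All 4 arrays from KCl medium therefore lay above both arrays of normal growth. In Sample D the values were 9.61 and 9.93, and in Sample E 9.53 and 10.42. Sample D lay below both KCl samples, and Sample E overlapped Samples A, B and C.

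The first comparison addressed the response to KCl after 1 h. PMC1 exceeded its normal growth level by 3.18-fold in Sample B (1.67 ± 0.52 on the log2 scale, SE, n = 2). In limma, fitted over all 10 arrays with a shared spread, this did not pass the threshold after Benjamini-Hochberg adjustment over all genes (adjusted p = 0.117, 95% interval 0.48 to 2.86). With the replicate number as a block it did (adjusted p = 0.0188, 0.90 to 2.44), as it did after median centring (1.53, adjusted p = 0.0409). The size depended on the array: the difference was 0.96 in replicate 1 and 2.38 in replicate 2, and leaving out Sample B replicate 1 or replicate 2 gave 2.49 (adjusted p = 0.00102) or 0.85 (adjusted p = 0.205). PMC1 was the only member called under the block, 1 of 10, where 10.7% of all genes were called and 8.11% were called higher. Without the block none of the 10 was called, against 4.4% of all genes (3.51% higher). At an unadjusted p under 0.05 PMC1 alone passed, as did 1089 of 5449 genes. In such bulk samples, a transcript held by fewer cells and less of it per cell cannot be told apart.

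**Figure D1:**
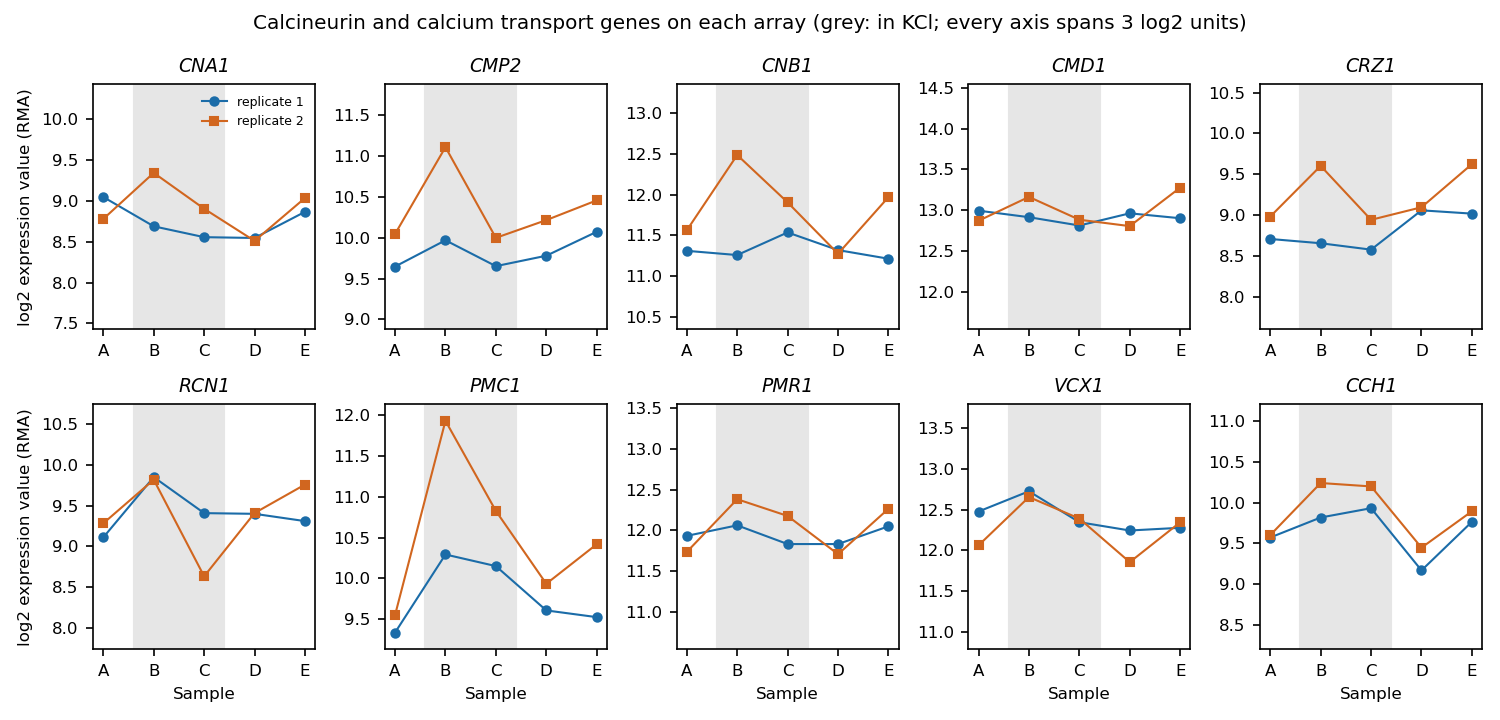
Log2 expression value (RMA) of each of the 10 genes in Samples A to E, with 1 point per array, circles for replicate 1 and squares for replicate 2, lines joining arrays of a replicate, and grey marking growth in KCl. Every vertical axis spans 3 log2 units; PMC1 reads 9.34 and 9.55 in Sample A and 10.29 and 11.93 in Sample B, whereas CMD1 stays between 12.80 and 13.28.

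RCN1 and CRZ1 were examined next, as the feedback regulator and the transcription factor of the pathway. RCN1 (YKL159C) encodes a regulator that binds calcineurin and can inhibit it, and its own gene is known to be turned on by it. It read 9.11 and 9.28 in Sample A and 9.85 and 9.82 in Sample B, so the groups did not overlap and the replicates of Sample B nearly coincided. The difference of 0.64 ± 0.30 (1.55-fold) did not pass (adjusted p = 0.279, and 0.21 with the block). Unlike the other members but VCX1, RCN1 varied little with the array median (r = 0.18 over 10 arrays, and 0.34 for VCX1, against 0.64 to 0.90 for the rest). In Sample C it read 9.41 and 8.63, in Sample D 9.40 and 9.41, and in Sample E 9.31 and 9.76. Both Sample C values were below both of Sample B, with a difference of −0.81 ± 0.30 that did not pass in limma (adjusted p = 0.405, and 0.238 with the block). The Sample C arrays disagreed most, and replicate 2 of this group gave the lowest RCN1 value of all 10 arrays.

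CRZ1 (YNL027W), the calcineurin-regulated zinc finger factor, read 8.71 and 8.98 in Sample A, 8.65 and 9.60 in Sample B, and 8.57 and 8.94 in Sample C. It read 9.06 and 9.09 in Sample D and 9.02 and 9.62 in Sample E. The Sample B arrays lay on either side of Sample A, and the difference was 0.28 ± 0.35 (adjusted p = 0.712). Its 95% interval was −0.52 to 1.09, so a change of CRZ1 mRNA within these bounds was not excluded.

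The subunits of calcineurin itself showed no difference that passed. CMP2 (YML057W) and CNA1 (YLR433C) encode alternative catalytic subunits. CMP2 read 9.65 and 10.05 in Sample A, 9.97 and 11.11 in Sample B, and 9.65 and 10 in Sample C, so its Sample B arrays overlapped Sample A only through replicate 1. In Samples D and E it read 9.78 and 10.22, and 10.07 and 10.46. Its difference in Sample B was 0.69 ± 0.39 (adjusted p = 0.368, and 0.126 with the block). CNA1 read 9.05 and 8.78 in Sample A and 8.69 and 9.34 in Sample B, with a difference of 0.10 ± 0.28 (adjusted p = 0.883) that was −0.36 in replicate 1 and 0.56 in replicate 2. It read 8.56 and 8.90 in Sample C, 8.55 and 8.51 in Sample D, and 8.87 and 9.04 in Sample E, so that Sample D held its lowest values. Whether the 2 catalytic genes differed from each other in response was not tested.

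CNB1 (YKL190W), the regulatory subunit, also stood above both Sample A arrays only in replicate 2 of Sample B. It read 11.31 and 11.56 in Sample A against 11.26 and 12.49 in Sample B, a difference of 0.44 ± 0.41 (adjusted p = 0.62). Its values in Samples C, D and E lay between 11.21 and 11.97. Without Sample B replicate 1, CMP2 and CNB1 also passed (1.26 and 1.05, adjusted p = 0.0124 and 0.0327), but so did 1848 of all genes in that fit. Without Sample B replicate 2 they stood at 0.12 and −0.18. CMD1 (YBR109C), calmodulin, had the narrowest range of the 10 genes. Its 10 values lay between 12.80 and 13.28, and its difference in Sample B was 0.11 ± 0.23 with an interval of −0.43 to 0.64 (adjusted p = 0.852).

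The remaining transporters stood slightly higher in Sample B without passing. PMR1 (YGL167C), the Golgi pump for calcium and manganese, read 11.93 and 11.74 in Sample A and 12.06 and 12.38 in Sample B (0.39 ± 0.24, adjusted p = 0.43). VCX1 (YDL128W), the vacuolar exchanger of calcium for protons, read 12.48 and 12.06 in Sample A and 12.73 and 12.65 in Sample B (0.42 ± 0.25, adjusted p = 0.39). CCH1 (YGR217W), the pore subunit of the plasma membrane calcium channel, read 9.57 and 9.60 in Sample A and 9.82 and 10.24 in Sample B (0.44 ± 0.25, adjusted p = 0.366). For each of these 3 genes both Sample B arrays lay above both Sample A arrays, and the difference was larger in replicate 2. In Samples C and E, PMR1 lay between 11.83 and 12.27 and VCX1 between 12.28 and 12.39. In Sample D, PMR1 read 11.83 and 11.71 and VCX1 12.24 and 11.86, and replicate 2 of this sample held the lowest value of both genes.

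Over the 10 genes the median difference in Sample B was 0.43, against 0.08 over all genes. It was 0.19 against −0.18 in replicate 1 and 0.63 against 0.44 in replicate 2. Differences were positive for all 10 genes as deposited, but that of CNA1 turned negative under quantile normalization, and those of CNA1 and CMD1 under median centring. For 5 of 10 genes both Sample B arrays lay above both Sample A arrays, which held for 23.1% of all genes. For 6 of 10 the value was higher within both replicates, as for 30.8% of all genes.

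**Figure D2:**
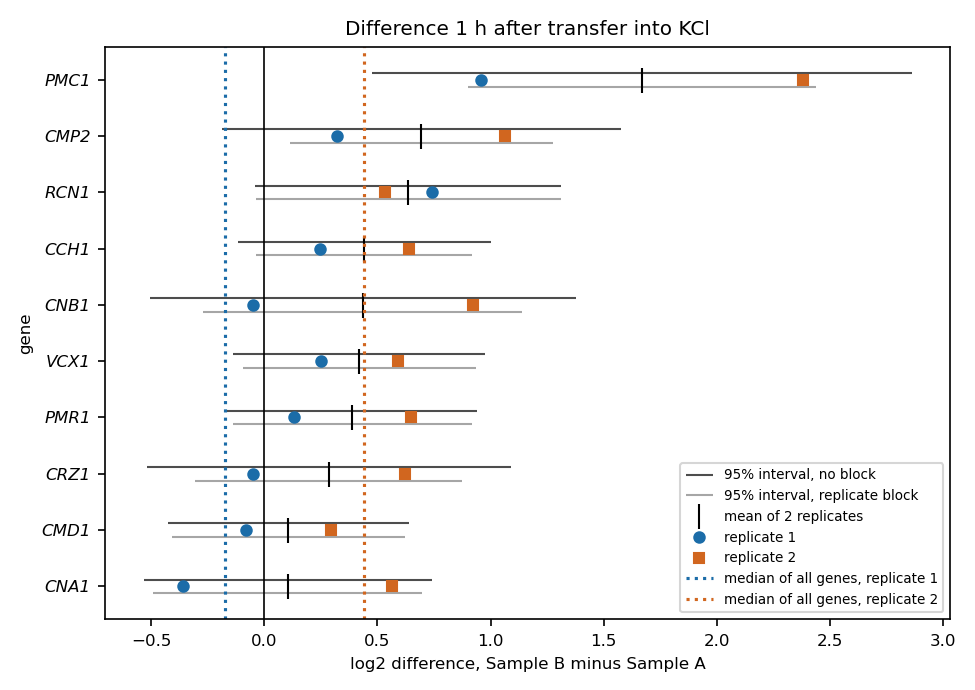
Log2 difference of Sample B minus Sample A for each gene, with circles and squares for replicates 1 and 2, ticks for their mean, and lines for 95% intervals of limma without (dark) and with (light) the replicate block. Dotted lines mark the median over all genes in replicate 1 (−0.18) and replicate 2 (0.44); PMC1, at 1.67, is the only gene whose 2 intervals both lie above 0.

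After adaptation, in Sample C, 2 of the 10 genes, PMC1 and CCH1, stood above both arrays of normal growth on both arrays, as did 18.1% of all genes. PMC1 was 2.06-fold higher than in Sample A (1.05 ± 0.52), with 0.82 in replicate 1 and 1.28 in replicate 2. It did not pass (adjusted p = 1, and 0.363 with the block), except in limma fitted to these 2 groups alone (adjusted p = 0.034). CCH1, which read 9.93 and 10.20 in Sample C, was 0.48 ± 0.25 higher (adjusted p = 1, and 0.62 with the block). None of the 10 members was called by limma with or without the block, nor did any reach an unadjusted p under 0.05 without it (255 of all genes did). Over all genes the calls were 0.0184% without the block and 0.771% with it. The median difference of the members was 0.04 and that of all genes −0.01. Between Samples B and C, PMC1 differed by −0.62 ± 0.52 (adjusted p = 0.75), which became 0.20 without Sample B replicate 2, and none of the 10 was called with or without the block. RCN1 was the 1 member with an unadjusted p under 0.05 there, beside 561 of all genes. Over all genes none was called (0%) without the block and 0.0184% with it.

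The removal of KCl was followed by lower CCH1 and PMC1 values. CCH1 read 9.17 and 9.45 in Sample D, below both arrays of every other sample. Its difference from Sample C was −0.76 ± 0.25 and nearly equal in the 2 replicates (−0.76 and −0.75) (adjusted p = 0.882, and 0.336 with the block, limma). The adjusted p was lower in limma with array weights (0.07) and with the 2 groups alone (0.194), but did not pass. Against Sample A the difference was −0.28 ± 0.25 (adjusted p = 1). PMC1 was lower in Sample D than in Sample C by 0.54 in replicate 1 and 0.89 in replicate 2 (−0.72 ± 0.52, adjusted p = 1, and 0.6 with the block). Both Sample D arrays lay below both Sample C arrays for 6 of the 10 genes, and for 29.5% of all genes. No member was called with or without the block, while over all genes limma called 0% and 0.0184%. CCH1 was the 1 member with an unadjusted p under 0.05, beside 270 of all genes. The median difference was −0.22 over the members and −0.09 over all genes.

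In Sample D against Sample A, PMC1 was 0.33 ± 0.52 higher (adjusted p = 1), and the 10 differences lay between −0.39 (CNA1) and 0.33. In Sample E against Sample A they lay between 0.04 (CNA1) and 0.53 (PMC1, ± 0.52, adjusted p = 1), and those of CNA1 and VCX1 turned negative under quantile normalization and median centring. The Sample E median was 0.28 over the members and 0.13 over all genes. In both comparisons limma called no member with or without the block, and no member had an unadjusted p under 0.05 without it (219 and 47 of all genes did). Over all genes the calls were 0% without the block in both, and 0.239% in Sample D and 0% in Sample E with it.

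A single test of whether the 5 group means differed at all (limma's moderated F) gave the largest values to CCH1 and PMC1. CCH1 had F = 3.33 (adjusted p = 0.48, and 0.209 with the block) and PMC1 F = 3.12 (adjusted p = 0.507, and 0.108 with the block). No member passed either test, while 0.532% of all genes did without the block and 3.27% with it. Ordered by group mean, PMC1 ran from Sample A (9.44) through D (9.77), E (9.97) and C (10.49) to B (11.11). CCH1 ran from Sample D (9.31) through A (9.59), E (9.83) and B (10.03) to C (10.06). As deposited, the highest mean of 6 of the other 8 members was also that of Sample B, while CMD1 and CRZ1 were highest in Sample E. The share of all genes highest in Sample B was not computed, and replicate 2 of that sample had the highest array median. After median centring CNA1 was lower in Sample B than in Sample A (−0.041). No 2 neighbours in the order of any member differed beyond their spread, the largest of the 40 steps being 1.31 SE (VCX1, from Sample C to Sample B), where 2.27 SE would reach the 95% bound.

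The genes whose values followed these 2 members most closely were found by Pearson correlation over the 10 arrays, among 5319 other genes above background. These are descriptions, since the highest of many were taken and the genes share arrays and array medians. For PMC1 the closest were ARI1, an aldehyde reductase (r = 0.991), TRR2, the mitochondrial thioredoxin reductase (r = 0.988), LAM4, a sterol transfer protein (r = 0.982), and TGL2, a mitochondrial lipase (r = 0.981). After each array was centred on its median the correlation was 0.987, 0.85, 0.974 and 0.972. For CCH1 they were DNF3 (r = 0.971) and DNF1 (r = 0.964), which encode phospholipid flippases, YPK9, a vacuolar P-type ATPase (r = 0.966), and PEP1, a vacuolar sorting receptor (r = 0.965). With centring these 4 gave 0.953 for DNF3, 0.951 for DNF1, 0.862 for YPK9 and 0.955 for PEP1. ARI1 read 10.55 and 11.02 in Sample A and 11.59 and 13.05 in Sample B, and thus had the same uneven Sample B arrays as PMC1. PMC1 and CCH1 were correlated with r = 0.79 (0.53 after centring).

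**Figure D3:**
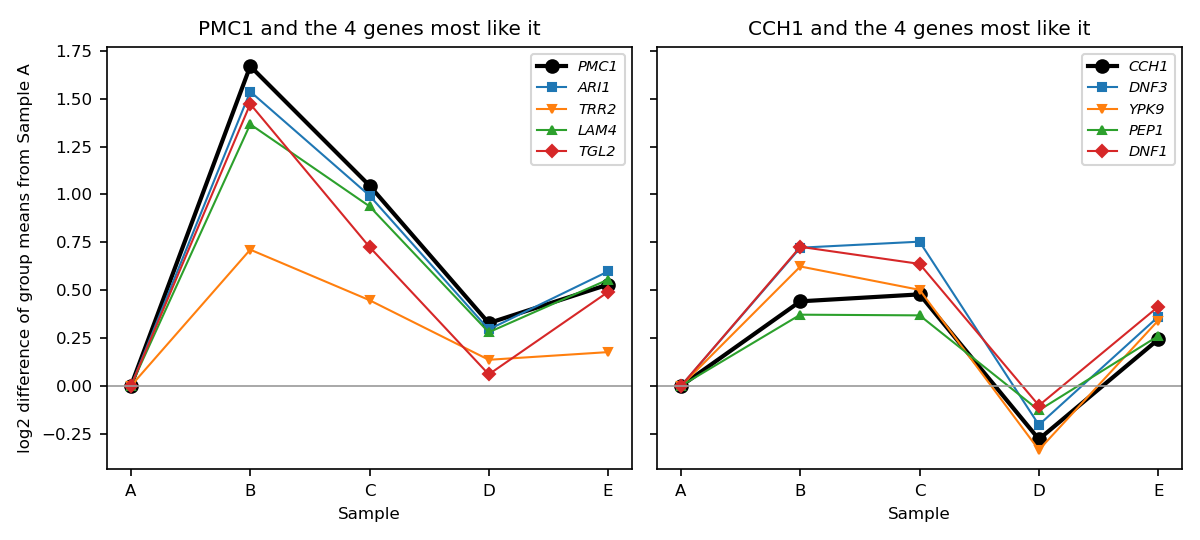
Log2 difference of group means from Sample A, in Samples A to E, for PMC1 (left, black) and CCH1 (right, black) and the 4 genes most correlated with each over the 10 arrays; each point is a mean of 2 arrays. PMC1 peaks in Sample B (1.67) and is at 1.05 in Sample C, whereas CCH1 stands at 0.44 and 0.48 in Samples B and C and at −0.28 in Sample D.

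Known targets of calcineurin and Crz1 were examined beyond the members. Of 15 listed genes, 12 had a named probe set. In Sample B against Sample A, 2 rose, none fell and 10 did not pass in limma, and with the replicate block 8 rose and none fell. The median difference was 1.20, against 0.08 over all genes. GSC2, the stress-induced subunit of glucan synthase, rose 4.91-fold (2.30 ± 0.38, adjusted p = 0.0172), from 10.49 and 10.37 in Sample A to 13.22 and 12.23 in Sample B. GYP7, a GTPase-activating protein for vacuolar Rab proteins, rose 3.12-fold (1.64 ± 0.34, adjusted p = 0.035), from 8.60 and 9.36 to 10.50 and 10.75. For both genes, unlike PMC1, the difference was larger in replicate 1.

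With the block, where 8.11% of all genes were called higher, the rises also included MEP1, an ammonium permease (1.27), CHS1, a chitin synthase (1.27), CRH1, a chitin transglycosylase (1.13), and ENA5, a sodium and lithium pump (1.41). Their adjusted p-values lay between 0.0148 and 0.0293 with the block, and between 0.0501 and 0.0773 without it. ENA5 had 2 probe sets, and only that with the higher mean was examined. The set used has a suffix given to sets that match several transcripts, and the ENA genes are near-identical copies. Its value therefore cannot be assigned to a single gene. Several of these genes, among them GSC2, CRH1 and CHS1, are known to respond to cell wall stress as well. The count of target genes that rose, 2 with all arrays, fell to 0 when either normal growth array was left out. It was 7 without Sample B replicate 1, 4 without Sample B replicate 2, and 1 (GSC2) when an array of Sample C, D or E was omitted.

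In the later comparisons no target gene was called with or without the block, and the following values are descriptions. Relative to normal growth, the median difference of the 12 target genes was 0.41 for Sample C (all genes: −0.01), with 9 positive. For Sample D it was 0.56 (all genes: −0.12), with 11 positive. Sample E gave 0.53 (all genes: 0.13), with 12 positive. Positive medians of this list were thus not limited to growth in KCl. GSC2 read 12.28 and 11.66 in Sample C and 10.48 and 10.95 in Sample D, so it was high in both KCl samples, as PMC1 was. Its difference in Sample C was 1.54 ± 0.38 (adjusted p = 0.28, and 0.148 with the block). It passed in limma with array weights (adjusted p = 0.0439) and with the 2 groups alone (0.000377). Over all genes these fits called 63 and 187 genes, against 1 in the main fit. Leaving out either array of Sample B did not alter the difference (1.54). For RSB1, ENA5, CRH1, CHS1 and PLB3 too, both arrays of Sample B and both of Sample C lay above both of Sample A. RSB1 read 6.49 and 7.02 in Sample A and 8.71 and 9.94 in Sample C. CMK2, a calmodulin-dependent protein kinase, RCN2, a calcineurin regulator from the list of substrates and regulators, and PUN1, a plasma membrane protein, were singled out after their values had been seen. CMK2 read 10.27 and 11.73 in Sample A, 10.72 and 9.66 in Sample C, and 12.28 and 11.97 in Sample D. Its difference of Sample D from Sample C, 1.94 ± 0.50, did not pass (adjusted p = 0.682, and 0.324 with the block). With array weights it passed in limma (adjusted p = 0.041), as did 56 of all genes. RCN2 stood 1.13 higher in Sample D than in Sample C (adjusted p = 0.972) and PUN1 0.99 higher (adjusted p = 0.851). For these 3 genes both Sample D arrays were above both Sample C arrays, as they were for GYP7, YPS1 and CHS1 of the target list. Those of GSC2, ENA5, CRH1, CCH1 and PMC1 were below, as for 29.5% of all genes. The share of all genes with both Sample D arrays above was not computed.

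**Figure D4:**
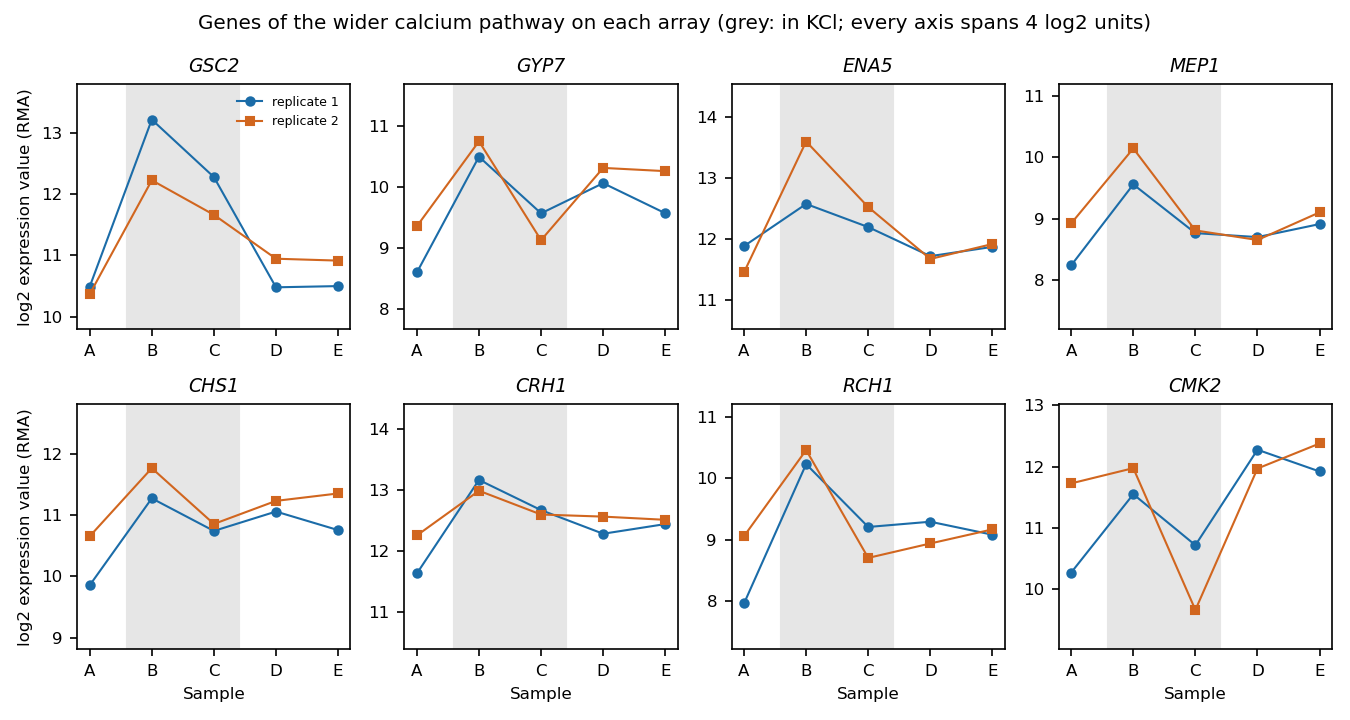
Log2 expression value (RMA) of GSC2, GYP7, ENA5, MEP1, CHS1, CRH1 and RCH1, which rose in Sample B by limma with the replicate block, and of CMK2, with 1 point per array (circles, replicate 1; squares, replicate 2), lines joining arrays of a replicate, and grey marking growth in KCl. Every vertical axis spans 4 log2 units; GSC2 is high in both KCl samples, whereas CMK2 is lowest in Sample C replicate 2 (9.66) and read 12.28 and 11.97 in Sample D.

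The other lists held few calls in Sample B, to be read against the 3.51% of all genes called higher without the block and 8.11% with it. Of 10 other calcium channels and transporters, 1 rose with and without the block, none fell, and the list median was 0.23. The gene was RCH1, a plasma membrane protein that affects calcium entry, which rose 3.58-fold (1.84 ± 0.37, adjusted p = 0.0298), from 7.96 and 9.06 to 10.23 and 10.46. It did not pass without Sample A replicate 1 (1.29, adjusted p = 0.192), nor when an array of Sample C, D or E was omitted (adjusted p = 0.0516 to 0.0665). Its call was also lost under quantile normalization (adjusted p = 0.0533), with the 2 groups alone (0.273) and with array weights (0.309). Of 15 measured calcineurin substrates and regulators, none passed without the block and 1 rose with it: RIM11, a kinase of the GSK3 family (1.02, adjusted p = 0.175, and 0.042 with the block). RIM11 read 10.65 and 11.75 in Sample B and stood at 1.57 without replicate 1 and 0.47 without replicate 2 of that sample. The list median was 0.26. Of 10 genes listed for calmodulin targets, none passed without the block and 2 rose with it, RCK1, a protein kinase (2.38, adjusted p = 0.0597, and 0.0273 with the block), and MYO3, a type I myosin (1.33, adjusted p = 0.191, and 0.0211 with the block). Without Sample B replicate 1 or replicate 2, RCK1 stood at 1.75 or 3.02 and MYO3 at 2.07 or 0.60. RCK1 read 5.68 in Sample A replicate 1, barely above the other-species level of that array (also 5.68). In replicate 2 it read 5.14, below the level there (5.40). The list median was 0.24. No gene of the 4 lists was called in any of the other comparisons, with or without the block.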

How the data were processed

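Total RNA, extracted with hot phenol, was hybridised to 10 single-colour arrays. The deposited values are log2 expression values that the authors made by RMA in Affymetrix Expression Console, of a version that the labels do not state. They were used without further scaling.

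Symbols came from the platform annotation: 7244 of 10928 probe sets had 1 symbol, 1 had several and 3683 none, and locus tags came from RefSeq. For 47 genes with several probe sets, that of the highest mean was used. Genes of another species on the array gave the background, and 5320 genes exceeded its 95th percentile on at least 2 arrays. The number of arrays limits the precision, and the spread is that between culture batches.

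limma (version 3.58.1, R version 4.3.3) was fitted to all 5449 genes and 10 arrays with 1 coefficient per sample, and 6 comparisons and a moderated F test were made, two-sided, at an adjusted p of 0.05. According to the methods, each of the 2 replicate cultures was grown on its own occasion and sampled in turn. Replicate numbers were therefore taken to pair the samples. Arrays of the same number deviated together, with a correlation of 0.221 to 0.521 over 10 pairs of groups, and the fit was repeated with the number as a block. Alternatives were quantile normalization, median centring, array weights, a background filter, the 2 groups alone, and leaving out each array. The fit without the block was also run on simulated data with independent noise and the same spread in every sample. That simulation held no shared batch deviation and no wider spread in Sample B, so it does not test the fit under these conditions.

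The 10 members, the 4 gene lists and the tests were chosen with earlier results of these data known. All members are named. Of each list, at most 6 genes called in Sample B by either fit are named, by size of difference. For the 2 members with the largest F, the 4 most correlated genes are named. ENA1, ENA2 and NCW2 of the target list, and FPR1 of the substrates and regulators, were matched to no probe set and not analysed here. Promoter and protein sequences were not used here.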

Additional observations from a re-analysis of the deposited data

How the results depend on the processing

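When arrays were weighted, the Sample B arrays received 0.231 each and the others 0.984 to 2.80. With the replicate block, 1 member (PMC1) was called in Sample B against Sample A in place of 0, and 8 other target genes in place of 2. It changed no other count of members called. Under median centring the counts were 1 and 4, under quantile normalization 0 and 5, with array weights 0 and 0, and with the 2 groups alone 0 and 0. Leaving out 1 array gave 0 to 3 members and 0 to 7 target genes, the highest counts without Sample B replicate 1 and no target gene without either array of Sample A. Over all genes, calls in Sample B numbered 240, 583 with the block, 11 with the 2 groups alone, 10 with array weights, 496 under quantile normalization, 453 under median centring, and 0 to 1848 with 1 array left out. Calls that were higher numbered 191 of 240, but 261 of 496 and 293 of 453 under quantile normalization and centring, which moved the median of all genes from 0.08 to −0.08 and −0.06. In Sample C against Sample A 1 member (PMC1) was called with the 2 groups alone, as were 187 of 5449 genes. Without Sample B replicate 1, the PMC1 difference of Sample C from Sample B was −1.44. PMC1 in Sample B ranged from 0.85 to 2.49 over all alternatives (adjusted p = 0.00102 to 0.49).

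In Sample B against Sample A, CNA1 changed sign under quantile normalization (−0.11) and centring (−0.041), and CMD1 under centring (−0.037). With 1 array left out, CNA1 ranged from −0.22 to 0.43, CNB1 from −0.18 to 1.05, CMD1 from −0.018 to 0.23 and CRZ1 from −0.19 to 0.76, and PMC1 in Sample C against Sample B from −1.44 to 0.20. The cause was not tested. The other 41 member differences changed sign in 35 of 656 values under the alternatives, with adjusted p of 0.596 or more where they did. Alternatives for the target genes were chosen after seeing the data. A lone array left in a group was assumed to vary like the others.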
